A study of Mus musculus with 18 samples.

Results

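The major urinary protein (MUP) genes were followed in liver RNA of female mice that carry the *Rps2*-A226Y mutation. The 10 genes described here, *Mup3*, *Mup4*, *Mup6*, *Mup7*, *Mup9*, *Mup10*, *Mup12*, *Mup17*, *Mup20* and *Mup21*, were chosen by symbol and make up 10 of the 22524 genes counted, and the other 11 MUP genes in the counts are given beside them. *Rps2* encodes a protein of the small ribosomal subunit, and A226Y is a ribosomal ambiguity mutation that lowers the accuracy of decoding. Liver was taken at 15 months from 10 A226Y mice and from 8 wild-type mice with the CMV-Cre transgene (WT), all females of the C57BL/6 strain per the labels, with 1 library per mouse. The A226Y mice are heterozygous for a knock-in allele made in 129/Sv embryonic stem cells and backcrossed to C57BL/6, in which a floxed stop cassette is removed by Cre under the ubiquitous CMV promoter. Excision was partial, so each A226Y liver is a mosaic in which cells that keep the cassette have a single active *Rps2* allele. A difference between the groups can therefore go with the mutation or with the lower *Rps2* dose, and these cannot be told apart here. The study also compared haploinsufficient mice, which keep the cassette, with wild-type controls. It reported far fewer changed genes there, with little overlap with those of A226Y mice. Those haploinsufficient mice are not among the mice used here.

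MUPs are small secreted lipocalins, barrel-shaped proteins with a pocket that binds volatile ligands. In mice, hepatocytes make them in large amounts and they pass through blood into urine, where they release pheromones slowly and mark the identity of the animal. Their genes form a tandem array on chromosome 4, in which recently duplicated central copies are almost the same and older peripheral copies have diverged, and they are known to respond to growth hormone acting through its receptor, JAK2 and STAT5, and to be expressed more in male than in female liver. Circulating MUPs have also been described as signals that act on glucose and lipid metabolism.

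The 21 genes lay between positions 59956804 and 62150863 of chromosome 4 (GRCm38), and no exon of another annotated gene overlapped theirs. The stretches below show why the copies have to be read with care: they give 60 coding bases of each member in GENCODE M21 transcripts, 5′ to 3′, with capitals where a base differs from that of *Mup10*. The first set covers coding bases 13 to 72 of *Mup10*, the start of the coding sequence in exon 1, and the aligned bases of the other members.
Mup3 (chr4:62087148-62087207, minus strand, exon 1): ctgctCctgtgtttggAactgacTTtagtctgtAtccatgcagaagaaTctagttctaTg
Mup4 (chr4:59960534-59960593, minus strand, exon 1): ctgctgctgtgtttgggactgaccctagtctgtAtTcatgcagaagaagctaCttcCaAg
Mup6 (chr4:60003558-60003617, plus strand, exon 1): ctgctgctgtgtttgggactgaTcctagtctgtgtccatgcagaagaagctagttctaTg
Mup7 (chr4:60070229-60070288, minus strand, exon 1): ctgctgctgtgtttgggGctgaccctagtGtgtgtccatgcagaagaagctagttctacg
Mup9 (chr4:60421815-60421874, minus strand, exon 1): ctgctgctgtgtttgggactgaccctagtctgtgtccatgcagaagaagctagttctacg
Mup10 (chr4:60582017-60582076, minus strand, exon 1): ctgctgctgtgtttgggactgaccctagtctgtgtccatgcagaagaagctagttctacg
Mup12 (chr4:60741144-60741203, minus strand, exon 1): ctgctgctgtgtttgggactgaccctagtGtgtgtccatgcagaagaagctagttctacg
Mup17 (chr4:61595689-61595748, minus strand, exon 1): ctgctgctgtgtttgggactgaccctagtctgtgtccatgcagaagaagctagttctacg
Mup20 (chr4:62053975-62054034, minus strand, exon 1): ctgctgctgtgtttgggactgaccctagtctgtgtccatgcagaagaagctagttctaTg
Mup21 (chr4:62150678-62150737, minus strand, exon 1): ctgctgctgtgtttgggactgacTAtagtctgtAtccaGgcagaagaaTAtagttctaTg
*Mup9*, *Mup10* and *Mup17* were identical over this stretch, *Mup12* and *Mup20* differed from *Mup10* at 1 base, and *Mup3* and *Mup21* at 7. Over the whole coding sequence *Mup17* differed from *Mup10* at 6 positions (98.9% identity), and the stretch in which they differed most, coding bases 145 to 204 in exon 2, held 3 of them.
Mup9 (chr4:60421345-60421404, minus strand, exon 2): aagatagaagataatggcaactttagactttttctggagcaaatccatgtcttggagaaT
Mup10 (chr4:60581547-60581606, minus strand, exon 2): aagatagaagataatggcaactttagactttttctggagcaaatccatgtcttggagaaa
Mup17 (chr4:61595219-61595278, minus strand, exon 2): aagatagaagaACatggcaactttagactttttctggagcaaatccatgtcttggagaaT
A read of 50 bases that falls outside such differences cannot be assigned to 1 copy. *Mup7*, *Mup9*, *Mup10*, *Mup12* and *Mup17* belong to a set of 15 near-identical copies, here those with at least 98% coding identity to *Mup10*, a limit set after seeing the data. *Mup3* (83.0% identity to *Mup10*), *Mup4* (89.0%), *Mup6* (89.9%), *Mup20* (90.7%) and *Mup21* (84.2%) lay outside it. *Mup9* encodes the same protein as *Mup16* and *Mup19*.

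The share of all 50-base windows of a member's transcript that occur in no other gene's transcripts ranged from 3.64% for *Mup7* to 95.7% for *Mup6*. It was 7.85% for *Mup9*, 13.8% for *Mup10*, 14.6% for *Mup12* and 21.9% for *Mup17*. It rose to 49.5% for *Mup20*, 80.7% for *Mup21*, 83.4% for *Mup3* and 87.6% for *Mup4*. *Mup2*, *Mup15* and *Mup19*, which are not members, had no such window, and none of them had more than 4 counts in any mouse. Most positions of *Mup3*, *Mup4*, *Mup6* and *Mup21* can thus be tied to 1 gene, as can close to 50% of those of *Mup20*, whereas those of the near-identical copies rest on few positions or on a split of shared reads, whose rule is not given in the sources used here. Levels are given below as CPM, the count of a gene scaled by the size and the composition of its library.

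**Figure D1:**
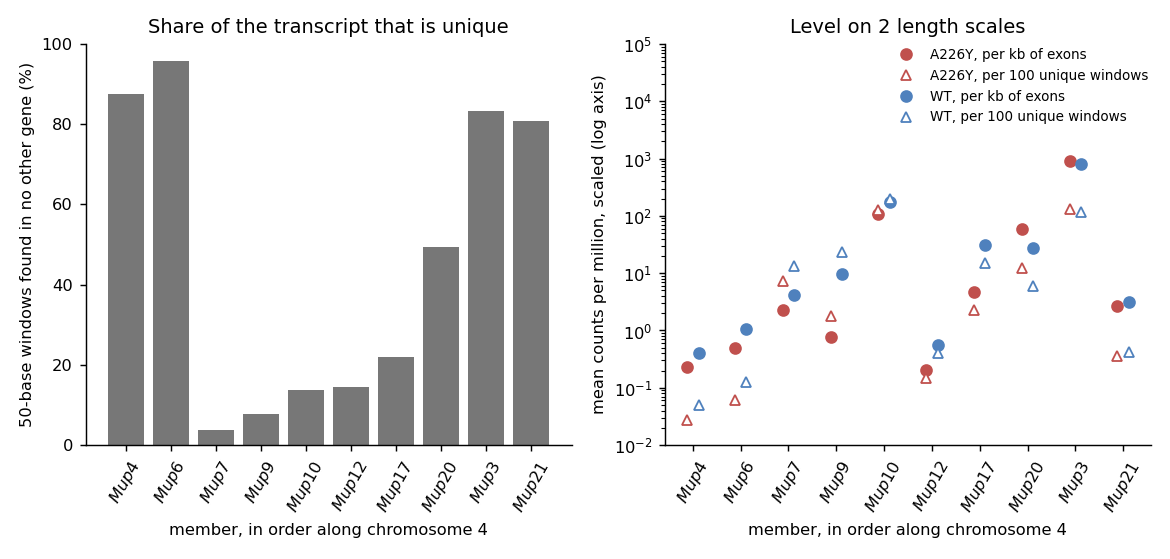
Left, the percent of 50-base windows of each member's transcript that occur in no other gene, with members ordered along chromosome 4. Right, mean CPM in 10 A226Y (red) and 8 WT (blue) livers on a log axis, per kb of exons (circles) and per 100 unique windows (triangles): *Mup3* leads per kb, while *Mup10* in WT passes *Mup3* per 100 unique windows.

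The targeted gene was checked first. *Rps2* was lower in every A226Y liver than in any WT liver, with 46.9 to 83.0 CPM against 104 to 143 CPM. Its difference on the log2 scale was -0.73 ± 0.11 (standard error, SE), with adjusted p = 0.000772 in edgeR's quasi-likelihood test adjusted by the Benjamini-Hochberg method over the 13353 genes tested, the test behind each adjusted p below unless another tool is named, with slightly fewer genes where counts were summed. The counts do not tell mutant from wild-type transcripts. Total counts per library ranged from 23850565 to 62126131 in A226Y and from 25869192 to 34918732 in WT mice, A226Y animal 23 being the deepest. Hepatocyte markers were high in all livers: the 6 markers summed to between 72063 and 147022 CPM in A226Y and between 91095 and 172932 CPM in WT mice.

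Of the 10 members, 5 were lower in A226Y livers (*Mup6*, *Mup7*, *Mup9*, *Mup12* and *Mup17*), *Mup20* was higher, and *Mup3*, *Mup4*, *Mup10* and *Mup21* did not pass the test. These calls depend on the method: against 1910 genes called in all here, limma-voom called 1871 with 0 members lower, the fit without WT animal 13 called 1334 with 1 member lower, and the fit with 4 surrogate variables called 50 with 0 members lower and 0 higher. Over all genes tested, 7.03% were called lower and 7.27% higher. The values of the 2 genotypes overlapped for all 10 members, and they did not overlap for 0.637% of all genes tested. The median log2 fold change was -0.87 over the members and -0.00 over all tested genes. All 10 members entered the test, but *Mup4* and *Mup12* reached 10 counts in enough mice only in the WT group, so a lower A226Y value was built into their entry. The study had itself reported lower MUP transcripts in these mice, so the direction of the members is not independent evidence. For *Mup6* it also reported a qRT-PCR measurement with the same pattern. In whole liver, fewer cells that express a gene and less RNA per cell cannot be told apart.

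**Figure D2:**
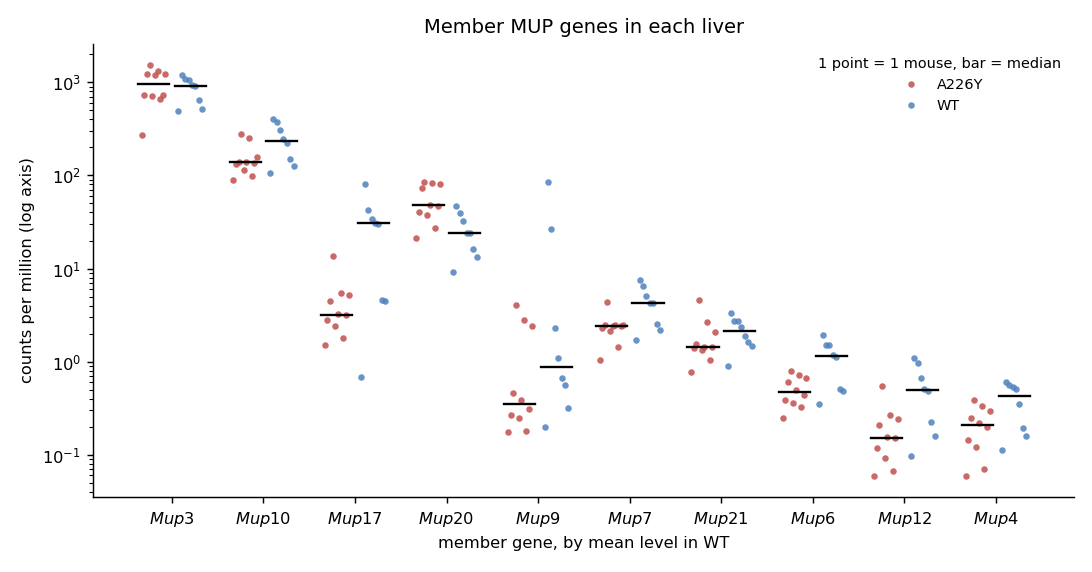
CPM of each member in every liver (log axis), 10 A226Y (red) and 8 WT (blue) mice, with 1 point per mouse and a bar at the median. The groups overlapped for every member, and *Mup17* shows 5 WT livers at 30.0 to 80.3 CPM above all A226Y livers and 3 WT livers among or below them.

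*Mup17* (ENSMUSG00000096688, chr4:61591929-61595871), 1 of the near-identical central copies, had the lowest adjusted p of the members. In the A226Y mice its level was 1.5 CPM at the lowest, 3.20 CPM at the median and 13.5 CPM at the highest, in animal 5. In the WT mice the lowest was 0.677 CPM (animal 6), the median 30.5 CPM and the highest 80.3 CPM (animal 13). The groups overlapped, because WT animals 4, 6 and 28 had 4.44, 0.677 and 4.60 CPM, while the other 5 WT mice lay above every A226Y mouse. The mean of 4.36 CPM ± 3.50 (SD over 10 livers) in A226Y and of 28.3 CPM ± 26.2 (SD over 8 livers) in WT mice gave a log2 fold change of -2.72 ± 0.60 (SE, adjusted p = 0.0066). A two-sided exact permutation test on log2 CPM, enumerating the 43758 possible divisions, gave p = 0.0244. *Mup17* kept its call with any 1 mouse left out, but lost it with limma-voom (-1.97, adjusted p = 0.116), and the direction turned with 4 surrogate variables (0.22, adjusted p = 0.897).

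*Mup9* (ENSMUSG00000078686, chr4:60418046-60421952), another central copy, was near 0 in most livers of both genotypes. A226Y mice had 0.176 CPM at the lowest, 0.349 CPM at the median and 4.06 CPM at the highest, and WT mice had 0.197, 0.882 and 86.0 CPM. Counts of 2344 in WT animal 13 and 879 in WT animal 21 stood apart from a highest count of 136 in the A226Y mice. The fitted log2 fold change of -3.68 ± 1.05 (SE, adjusted p = 0.0248) rested on WT animal 13: without it the value was -2.01 (adjusted p = 0.157), while without WT animal 21 it was -3.51 (adjusted p = 0.0461), and the exact permutation test over all mice gave p = 0.167. The counts of *Mup9*, *Mup16* and *Mup19*, which encode 1 protein, were also added together. That sum had a log2 fold change of -2.80 ± 0.67 (SE, adjusted p = 0.0105). It was not refitted with a mouse left out. *Mup1*, which is no member, followed *Mup9* from mouse to mouse (Pearson r of log2 CPM 0.88 over 18 mice, 0.89 within A226Y and 0.88 within WT, a description over mice that share genotype groups).

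*Mup7* and *Mup12* are the remaining central copies that were called lower. *Mup7* ranged from 1.03 to 4.32 CPM in A226Y (median 2.40 CPM) and from 1.71 to 7.55 CPM in WT mice (median 4.28 CPM). Of the 10 A226Y mice, 9 lay below the WT median, and 3 WT mice lay above every A226Y mouse. Its log2 fold change was -0.87 ± 0.27 (SE, adjusted p = 0.0377). *Mup12* was scarce, with 2 to 31 counts per library and a mean of 0.191 CPM ± 0.143 (SD over 10 livers) in A226Y against 0.527 CPM ± 0.368 (SD over 8 livers) in WT mice. The log2 fold change of *Mup12* was -1.45 ± 0.44 (SE, adjusted p = 0.0338), but 10 counts were reached in 2 of 10 A226Y and 5 of 8 WT mice, so the gene entered the test only through the group where it was higher. With each of the 18 mice left out in turn, *Mup7* kept its call 6 times and *Mup12* 10 times, and with 4 surrogate variables *Mup7* had -0.01 and *Mup12* turned to 0.29.

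*Mup10* (ENSMUSG00000078680, chr4:60578260-60582199) was the most abundant of the central copies among the members. It ranged from 88.8 to 275 CPM in A226Y (median 138 CPM) and from 106 to 405 CPM in WT mice (median 235 CPM), with 8 of 10 A226Y livers under the WT median. The log2 fold change of -0.65 ± 0.26 (SE) did not pass the test (adjusted p = 0.0985, exact permutation p = 0.0609). It passed when WT animal 6 (adjusted p = 0.0394) or A226Y animal 23 (adjusted p = 0.0472) was left out, the former the lowest WT liver and the latter the highest A226Y liver. Without WT animal 13 it was -0.51 (adjusted p = 0.217), and with 4 surrogate variables the direction turned (0.18, adjusted p = 0.745).

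*Mup6* (ENSMUSG00000078689, chr4:59964294-60007274) is a diverged copy that lies on the other strand from the rest, and its counts are the least open to sharing. Its A226Y values were 0.246 CPM at the lowest, 0.467 CPM at the median and 0.797 CPM at the highest, and its WT values were 0.355, 1.16 and 1.94 CPM. Every A226Y liver lay below the WT median and 5 WT livers lay above every A226Y liver, although WT animals 4, 6 and 28 again fell within the A226Y range. This gave a log2 fold change of -1.10 ± 0.31 (SE, adjusted p = 0.0233, exact permutation p = 0.0152), from 8 to 53 counts per library. The call was lost without WT animal 13 (adjusted p = 0.0592), without WT animal 24 (adjusted p = 0.0532), with limma-voom (adjusted p = 0.0612) and with 4 surrogate variables (-0.15, adjusted p = 0.897). *Mup4*, a diverged copy at the edge of the array, showed a log2 fold change of -0.86 ± 0.37 (SE, adjusted p = 0.119) from only 2 to 20 counts, with all 10 A226Y mice below the WT median of 0.432 CPM. *Mup4* entered the test only through the WT group, with 10 counts in 2 of 10 A226Y and 4 of 8 WT mice. With 4 surrogate variables its direction turned (0.09, adjusted p = 0.951).

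*Mup20* (ENSMUSG00000078672, chr4:62050234-62054158), which encodes darcin, the male urinary protein that attracts females, was the member that was higher. The A226Y mice had 21.5 CPM at the lowest, 47.8 CPM at the median and 84.2 CPM at the highest. The WT mice had 9.17 CPM at the lowest (animal 13), 23.9 CPM at the median and 46.4 CPM at the highest. The groups overlapped, but 6 A226Y livers exceeded every WT liver and 3 WT livers lay below every A226Y liver. The increase on the log2 scale was 1.10 ± 0.31 (SE, adjusted p = 0.0244, exact permutation p = 0.00622). The call was lost without WT animal 24 (adjusted p = 0.055) and with 4 surrogate variables (0.61, adjusted p = 0.480). Per 100 counts of *Mup10*, there were 32.8 counts of *Mup20* at the A226Y median and 11.5 at the WT median, with ranges of 10.8 to 73.3 and 2.27 to 30.8.

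*Mup3* (ENSMUSG00000066154, chr4:62083476-62087342) had most of the counts assigned to MUP genes in every liver. It ranged from 269 CPM (animal 29) to 1549 CPM (animal 15) in A226Y mice, median 964 CPM, and from 489 CPM (animal 21) to 1208 CPM (animal 33) in WT mice, median 915 CPM. Equal numbers of A226Y livers lay above and below the WT median. The log2 fold change of 0.18 ± 0.26 (SE) did not pass the test (adjusted p = 0.687). *Mup21*, the copy closest to *Mup3* in coding sequence (94.8% identity), had a mean of 1.83 CPM ± 1.11 (SD over 10 livers) in A226Y and of 2.13 CPM ± 0.800 (SD over 8 livers) in WT mice, and its log2 fold change of -0.22 ± 0.30 (SE, adjusted p = 0.660) did not pass either. A226Y animal 15, at 4.61 CPM, was the highest of all mice for *Mup21* and also for *Mup3*.

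Levels between genes were compared per length. Per kb of annotated exon, *Mup3* averaged 904 CPM in A226Y and 798 CPM in WT mice. *Mup10* followed with 110 and 174 CPM per kb, in the same order in both groups. In the WT mice *Mup17* (30.6 CPM per kb) and *Mup20* (27.5 CPM per kb) came next and differed by less than their spread, whereas in the A226Y mice *Mup20* reached 58.7 CPM per kb and *Mup17* 4.71 CPM per kb. *Mup4*, *Mup6* and *Mup12* averaged between 0.206 and 1.08 CPM per kb. On a scale of counts per 100 unique 50-base windows the order at the top changed in the WT mice, where *Mup10* had 200 CPM and *Mup3* 115 CPM, and not in the A226Y mice, where they had 127 and 130 CPM. That scale applies only if reads shared between copies were left out of the counts.

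Since short reads are shared between copies, the counts of the members were also added up per mouse. The sum ranged from 412 to 1774 CPM in A226Y mice (median 1168 CPM) and from 646 to 1667 CPM in WT mice (median 1234 CPM), or from 0.0437% to 0.178% of all counts of a library. The groups overlapped almost fully. On the log2 scale the sum differed by 0.02 ± 0.23 (SE, adjusted p = 0.972, exact permutation p = 0.873), in a fit that called 14.3% of 13344 genes in either direction. For all 21 MUP genes together it was 0.01 ± 0.23 (SE, adjusted p = 0.987). *Mup3* dominated both sums, with 65.3% to 87.3% of the member counts in A226Y and 51.9% to 85.7% in WT mice.

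Without *Mup3*, the sum of the other 9 members had a median of 207 CPM in A226Y and of 309 CPM in WT mice. Of the 10 A226Y livers 9 lay below the WT median. The difference on the log2 scale was -0.54 ± 0.25 (SE), which did not pass the test (p = 0.0441 before and 0.156 after adjustment, quasi-likelihood test). The 15 near-identical copies summed to 147 CPM at the A226Y median and 297 CPM at the WT median, with ranges of 96.4 to 285 CPM and 113 to 599 CPM. All 10 A226Y livers lay below the WT median and 5 WT livers above every A226Y liver. The log2 fold change of that sum was -0.85 ± 0.29 (SE, adjusted p = 0.0522, exact permutation p = 0.0387), which did not pass the threshold of 0.05, and with 4 surrogate variables the direction turned (0.12, adjusted p = 0.849). Leaving out WT animal 13 gave -0.63 (adjusted p = 0.137), and leaving out WT animal 6 gave -0.98 (adjusted p = 0.018).

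**Figure D3:**
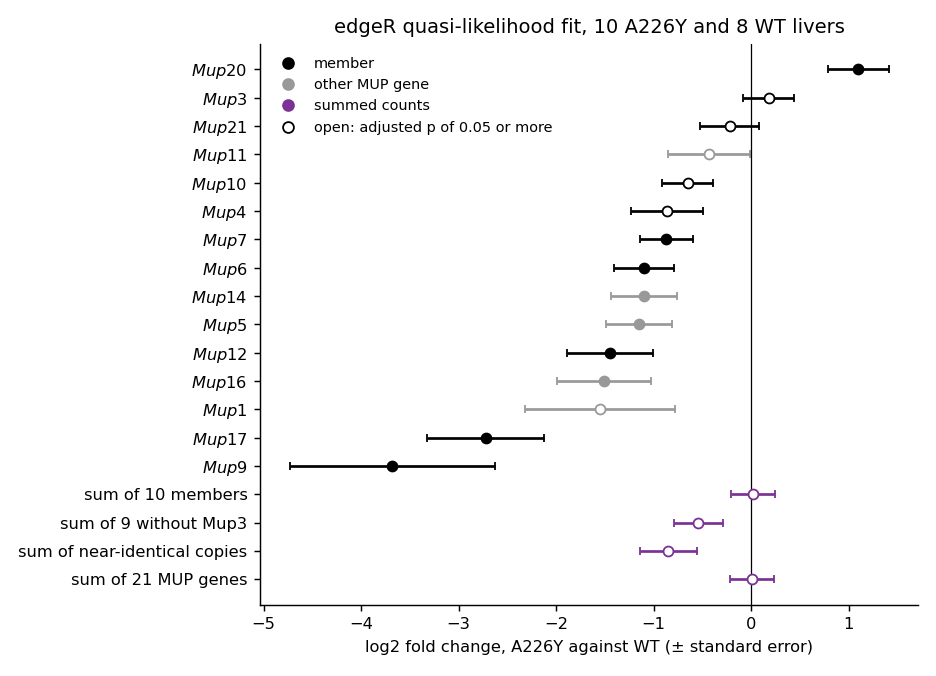
Log2 fold change of A226Y against WT with its standard error for the 10 members (black), 5 other MUP genes that entered the test (grey) and 4 sums of counts (purple), where filled points had an adjusted p under 0.05. *Mup20* at 1.10 is the filled point on the right, *Mup9* at -3.68 and *Mup17* at -2.72 lie farthest left, and all 4 sums are open, from -0.85 to 0.02. The sum of *Mup9*, *Mup16* and *Mup19* (-2.80, adjusted p = 0.0105) is not drawn.

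The make-up of the counts beside *Mup3* differed between livers. *Mup10* held 55.7% to 83.6% of them in A226Y and 68.3% to 84.5% in WT mice. *Mup17* held between 0.863% and 4.45% in A226Y mice (median 1.46%), and between 0.541% and 13.5% in WT mice (median 8.41%). *Mup20* held 9.01% to 40.8% in A226Y (median 23.8%) and 1.55% to 22.1% in WT mice (median 8.81%). WT animal 13 had the highest share of *Mup17*, the lowest share of *Mup20*, and 14.5% from *Mup9*. These shares were not tested.

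**Figure D4:**
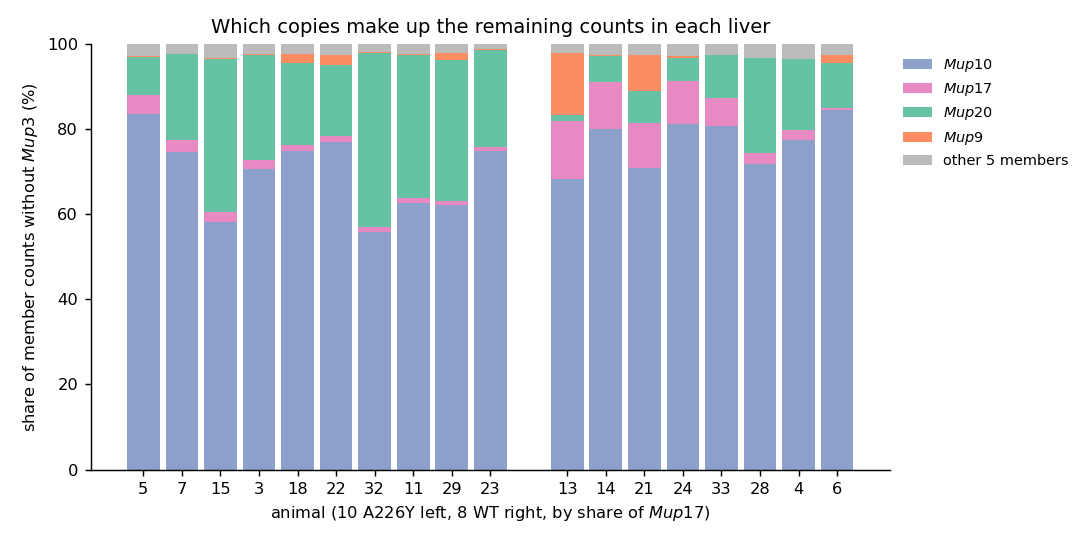
Percent of the member counts without *Mup3* that came from *Mup10*, *Mup17*, *Mup20*, *Mup9* and the other 5 members, with 1 bar per mouse ordered by the share of *Mup17*. The *Mup20* part (green) reached 40.8% in A226Y animal 32, and the *Mup17* part (pink) reached 13.5% in WT animal 13.

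Different patterns of variation between mice stood out among the members, as descriptions over mice that share genotype and library properties. *Mup6*, *Mup7*, *Mup10*, *Mup12* and *Mup17* moved together: Pearson r of log2 CPM with *Mup17* was 0.91 for *Mup6*, 0.92 for *Mup7*, 0.86 for *Mup10* and 0.85 for *Mup12* over 18 mice. Within the 8 WT mice these values were 0.95, 0.94, 0.93 and 0.91, and within the 10 A226Y mice 0.63, 0.85, 0.66 and 0.50. *Mup4* joined them with r of 0.78 over all mice. *Mup9*, also a near-identical copy, followed *Mup17* less closely, with r of 0.38 over all mice, -0.47 within A226Y and 0.44 within WT mice. The near-identical copies share reads, whereas *Mup6* has 95.7% unique windows; the part of shared reads in these values was not tested. The r of *Mup3* with *Mup17* was 0.16 over all mice, 0.59 within A226Y and 0.09 within WT mice, so in the A226Y mice *Mup3* followed *Mup17* about as closely as *Mup6* did. For *Mup20* with *Mup17* it was -0.40 over all mice but -0.15 within A226Y and -0.10 within WT mice. *Mup3* with *Mup20* reached 0.68 within WT and 0.25 within A226Y mice.

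**Figure D5:**
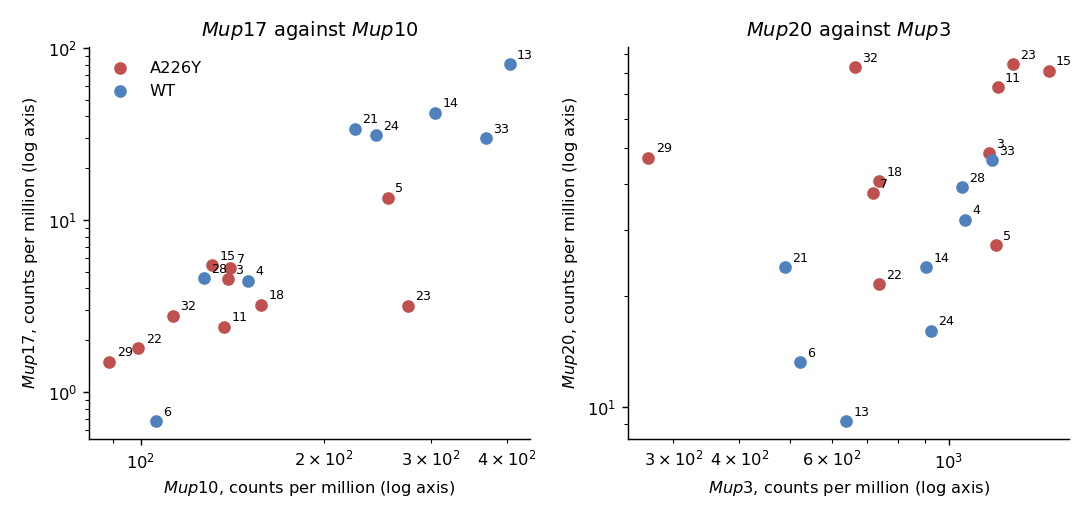
CPM of *Mup17* against *Mup10* (left) and of *Mup20* against *Mup3* (right) in each liver, on log axes, with animal numbers beside the points. WT animals 4, 6 and 28 sit with the A226Y mice on the left, with *Mup17* at 4.60 CPM or less.

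Of the other 11 MUP genes, 5 entered the test and 3 of them were lower. *Mup5*, a diverged copy with 82.9% unique windows, fell from 1.86 CPM ± 1.03 (SD over 8 livers) in WT to 0.839 CPM ± 0.380 (SD over 10 livers) in A226Y mice (log2 fold change -1.15 ± 0.34 SE, adjusted p = 0.0271). *Mup14* had -1.10 ± 0.34 (SE, adjusted p = 0.0375) and *Mup16* -1.51 ± 0.48 (SE, adjusted p = 0.0412). *Mup1* at -1.55 ± 0.77 (SE, adjusted p = 0.181) and *Mup11* at -0.43 ± 0.42 (SE, adjusted p = 0.521) did not pass, and *Mup1*, at 10 counts in 3 of 10 A226Y and 4 of 8 WT mice, entered the test only through the WT group. *Mup2*, *Mup8*, *Mup13*, *Mup15*, *Mup18* and *Mup19* had at most 14 counts in any mouse and were not tested.

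Growth hormone signalling, the main known regulator of the family, was read from 15 genes, of which 4 were lower and 0 higher by the quasi-likelihood test at the adjusted threshold, with a median log2 fold change of -0.12. *Ghr*, the growth hormone receptor, averaged 316 CPM ± 59.3 (SD over 10 livers) in A226Y and 477 CPM ± 70.9 (SD over 8 livers) in WT mice (log2 fold change -0.59 ± 0.12 SE, adjusted p = 0.00363). *Stat5a*, a transcription factor downstream of the receptor, had -0.58 ± 0.12 (SE, adjusted p = 0.0056), and *Igfals*, which encodes the acid-labile subunit that carries IGF1 in blood, had -0.66 ± 0.09 (SE, adjusted p = 0.000701). *Prlr*, the prolactin receptor, had -0.52 ± 0.10 (SE, adjusted p = 0.00309). *Stat5b*, the main hepatic STAT5, which was picked out after its values were seen, averaged 48.1 CPM ± 2.03 (SD over 10 livers) and 52.2 CPM ± 4.79 (SD over 8 livers), with a log2 fold change of -0.12 ± 0.05 (SE, adjusted p = 0.151). *Igf1*, its secreted target, had -0.22 ± 0.08 (SE, adjusted p = 0.0627).

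Of 13 hepatocyte transcription factors, 2 were lower, with a median of -0.09. They were *Foxa2* (-0.33 ± 0.08 SE, adjusted p = 0.0148) and *Zhx2* (-0.34 ± 0.08 SE, adjusted p = 0.0121), the latter known as a regulator of *Mup* genes. *Hnf4a* and *Cebpa*, the most abundant of them, had log2 fold changes of 0.08 ± 0.09 (SE, adjusted p = 0.590) and -0.33 ± 0.12 (SE, adjusted p = 0.0697).

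Other genes with sex-biased expression in mouse liver were read from a male-biased and a female-biased list. Of 15 male-biased genes 9 entered the test: *Selenbp2* (-2.0 ± 0.50 SE, adjusted p = 0.0130) and *Elovl3*, a fatty acid elongase (-1.26 ± 0.37 SE, adjusted p = 0.0281), were lower, and *Cyp2d9* (0.89 ± 0.26 SE, adjusted p = 0.0281) was higher. Of 20 female-biased genes 6 were lower and 0 higher, with a median of -0.48 and a range of the called values from -3.77 for *Cyp3a41b* to -0.52 for *Prlr*. The other 4 were *A1bg* (-2.57, adjusted p = 0.0318), *Atp6v0d2* (-1.81, adjusted p = 0.0112), *Slc22a26* (-0.68, adjusted p = 0.00671) and *Slc22a27* (-0.56, adjusted p = 0.0403). *Gstp1* (0.44, adjusted p = 0.111) and *Nudt7* (-0.22, adjusted p = 0.069), the most abundant of the male-biased genes, did not pass. *Cyp3a41b* belongs to a multigene family, and how far its counts are shared with other members was not tested.

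Among 10 other lipocalins, *Apom* (-0.32 ± 0.07 SE, adjusted p = 0.00638) and *C8g* (-0.37 ± 0.10 SE, adjusted p = 0.0179) were the 2 lower of 9 tested, and *Rbp4*, the retinol carrier, had 0.18 ± 0.11 (SE, adjusted p = 0.294). Of 10 other abundant secreted hepatocyte proteins 2 were lower, *Apoa2* (-0.31 ± 0.10 SE, adjusted p = 0.0481) and *Gc*, the vitamin D carrier (-0.26 ± 0.08 SE, adjusted p = 0.0274). *Alb* and *Trf*, the most abundant of them, had 0.08 (adjusted p = 0.781) and -0.09 (adjusted p = 0.508). Among the 30 genes that start within 1 Mb of the array, 24 were tested, with a median of 0.01: *Zfp618* was higher (0.91 ± 0.21 SE, adjusted p = 0.00807) and *Hdhd3* lower (-0.49 ± 0.16 SE, adjusted p = 0.0486). *Slc31a1*, a copper transporter, had -0.23 ± 0.10 (SE, adjusted p = 0.113), and *Ambp*, itself a lipocalin gene at the edge of this region, had -0.13 ± 0.15 (SE, adjusted p = 0.615).

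Some cell type markers were called, where 7.03% of all genes tested were called lower and 7.27% higher. Of 6 markers each, the hepatocyte list had 2 higher (*Cps1* 0.55, adjusted p = 0.0137, and *Tat* 0.85, adjusted p = 0.0331), the Kupffer cell list 1 lower (*Clec4f* -0.65, adjusted p = 0.0261), and the stellate cell list 2 lower (*Col1a1* -0.77, adjusted p = 0.0162, and *Col3a1* -0.60, adjusted p = 0.00516). Of 5 markers each, the lymphocyte list had 1 lower (*Cd74* -0.83, adjusted p = 0.0112) and the endothelial and cholangiocyte lists had 0 in either direction by the same test. In that order these lists had medians of -0.41, 0.02 and 0.21. Summed levels overlapped between the groups for every list: Kupffer cell markers ranged from 202 to 690 CPM in A226Y and from 295 to 541 CPM in WT mice, stellate cell markers from 302 to 361 and 292 to 369 CPM, lymphocyte markers from 112 to 332 and 132 to 897 CPM, endothelial markers from 182 to 272 and 191 to 252 CPM, and cholangiocyte markers from 13.1 to 29.9 and 12.1 to 25.9 CPM. No marker of these lists was at 0 in all mice, and the part of these differences in the MUP values was not tested.

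The genes whose log2 CPM followed the summed members most closely over the 18 mice were *Zfp120* (r = 0.89), *Pdcd4* and *Pcmtd2* (0.87 each), and *Ermard* and *Elp4* (0.83 each). *D630044L22Rik* (-0.90), *Aars* (-0.87) and *Rcan1* (-0.86) went most the other way. All 8 kept the sign of r within each genotype, and their log2 fold changes lay between -0.11 and 0.16 with adjusted p of 0.441 or more. Outside the MUP family, and looked up for *Mup17* alone after its values were seen, *Eci3* (r = 0.93; log2 fold change -1.61, adjusted p = 0.0109) and *Stat5b* (r = 0.91, with 0.84 within A226Y and 0.89 within WT mice) were the closest. For *Mup20*, also looked up afterwards outside the family, *Thumpd3* was closest (r = 0.86) and *Emc10* (-0.83) and *Igfals* (-0.82, with -0.76 within A226Y and -0.65 within WT mice) were most opposed. These are descriptions over few mice, drawn from 13353 genes, and no p was attached to them.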

How the data were processed

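Liver RNA of 10 A226Y and 8 WT mice was sequenced as single-end reads of 50 bases on an Illumina sequencer. The authors deposited whole-number counts per Ensembl gene for each mouse, not normalized, for 22524 genes. The submitters' processing notes name STAR, featureCounts and GRCm38, whereas the methods name RSEM with an older Ensembl annotation and build; how reads shared between copies were counted is not given in the sources used here, nor is strand. Symbols, positions and transcripts were taken from GENCODE M21 (GRCm38) by Ensembl identifier.

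A gene entered the test where 50% or more of the mice of 1 genotype reached 10 counts (13353 genes). edgeR 4.0.16 (R 4.3.3) with TMM scaling, its quasi-likelihood test and Benjamini-Hochberg adjustment was used without covariates, with a threshold of 0.05. Standard errors are the log2 fold change over the square root of F. Summed counts replaced the rows of their genes before refitting. Exact permutation tests used log2 CPM with a prior count of 2, and the smallest p that 43758 divisions allow is 2.29e-05. Alternatives were RLE size factors, library size only, no filter beyond 1 count, filterByExpr, voom in limma 3.58.1, DESeq2 1.42.0, surrogate variables (sva 3.50.0, 4 of them), and a transcript length offset (pseudocount 0.5, lowess span 0.3, 3 iterations), plus each mouse left out, the sum without *Mup3*, and copies of 1 protein added together. The sum of near-identical copies was chosen after seeing the data.

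Named genes are the members, the other MUP genes, *Rps2*, those of each list with an adjusted p under 0.05 or, outside the marker lists, among its 2 most abundant, and the 5 and 3 genes outside the family that were most and least like the summed members. *Stat5b* and the genes like *Mup17* and *Mup20* were added after their values were seen. The most abundant female-biased genes are not reported here. The lists were growth hormone signalling, transcription factors, sex-biased genes, lipocalins, secreted proteins, neighbours and cell type markers. The members and lists were chosen with earlier results of these data known. The tests were run on simulated counts first. No 2 mice of a genotype agreed within sampling noise (chi-square of at least 19.2 per degree of freedom over 73 pairs). Each library is 1 mouse, and counting error limits only the scarce members.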

Additional observations from a re-analysis of the deposited data

Results flagged for a closer look

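In 30 groups of values (the members, 4 sums and *Rps2* in each genotype), 5 had a highest mouse far from the nearest other by Dixon's criterion, which flags about 1 group in 20 by chance. A226Y animal 5 was such a mouse for 3 of the near-identical copies: *Mup17* at 13.5 CPM (next 5.47 CPM), *Mup7* at 4.32 CPM (next 2.50 CPM) and *Mup12* at 0.545 CPM (next 0.269 CPM). WT animal 13 stood apart for *Mup9*, at 86.0 CPM against 26.6 CPM in the next WT mouse. A226Y animal 15 stood apart for *Mup21*, at 4.61 CPM against 2.64 CPM.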

How the results depend on the processing

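With filterByExpr, *Mup4* and *Mup12* did not enter the test. The count of members called lower (5 of 10) was 4 or 5 under other scalings, filters, DESeq2 and the length offset. It fell to 0 with limma-voom (*Mup6*, *Mup7*, *Mup9*, *Mup12* and *Mup17* with adjusted p of 0.0612, 0.0693, 0.354, 0.0753 and 0.116) and to 0 with 4 surrogate variables, where the count called higher was also 0. Over all genes the fit with surrogate variables called 50, against 1910 in the main fit. In it, *Mup4* had 0.09, *Mup10* 0.18, *Mup12* 0.29, *Mup17* 0.22, *Mup21* 0.03 and the sum of near-identical copies 0.12, each positive instead of negative, and *Mup20* had 0.61 with adjusted p = 0.480; the cause was not tested. DESeq2 did not call *Mup9* (-1.86, adjusted p = 0.146) and called the sum of near-identical copies (-0.85, adjusted p = 0.0478). With 1 mouse left out, members called lower ranged from 1 (without WT animal 13, *Mup17* alone) to 6 (without WT animal 6 or A226Y animal 23), and were 2 without WT animal 24 and 3 without A226Y animal 3, 7, 11 or 15 or WT animal 14 or 21. Members called higher ranged from 0 (without WT animal 24) to 1. The summed members ranged from -0.07 to 0.12, the summed MUP genes from -0.08 to 0.11 and the near-identical copies from -0.98 to -0.63, which passed the threshold in 5 of 18 cases. The summed members turned to -0.54 without *Mup3* and to -0.05 with limma-voom, and the summed MUP genes to -0.06, while both were at 0.30 with surrogate variables (adjusted p = 0.527 and 0.519), none past the threshold. *Rps2* stayed called in every setting. No paired analysis was possible because each number names 1 animal and no number occurs in both genotypes. Depth limits *Mup4*, *Mup12* and *Mup6*, with 20, 31 and 53 counts at most. It also limits *Mup9*, which reached 10 counts in 6 of 10 A226Y and 7 of 8 WT mice. The share of unique windows limits *Mup7*, *Mup9*, *Mup10*, *Mup12* and *Mup17*.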
